A study of Mus musculus with 9 samples.

Results

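FGF and ERK pathway feedback genes were followed in mouse embryonic stem cells (ESCs) depleted of Dppa2 or Dppa4. The members were 10 genes fixed by name: Fgf4, Dusp4, Dusp6, Spry2, Spry4, Spred1, Etv4, Etv5, Egr1 and Fos. Each had 1 row among the 25965 gene rows of the deposited table, and all 10 passed the filter on low values. The cells were E14 ESCs of the 129/Ola background, grown without feeders in serum and leukaemia inhibitory factor (LIF). The study describes its knockdowns in serum ESCs that carry MERVL::tdTomato and Zscan4c::eGFP reporters, whereas the sample labels name only the E14 line. The cells received control, Dppa2 or Dppa4 siRNA at 0 h and again at 48 h, and were harvested at 96 h (4 d) for polyA RNA-seq. Each group had 3 libraries, titled rep3A, rep3B and rep3C and called A, B and C here. Whether the 3 in these titles names a single experiment is not given in the sources used here. The siRNAs were commercial pools against each target, so the groups are knockdowns of a mixed culture and not clones, and the study calls the 3 libraries of a group biological replicates without saying in what way they were separate. P-values measure the spread between these libraries.

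Fibroblast growth factors bind receptor tyrosine kinases with heparan sulphate as a cofactor, and the signal passes through Ras, Raf and MEK to the kinase ERK. ERK activity switches on transcripts that in turn restrain it: the Dusp phosphatases act on ERK family kinases, whereas the Sprouty and Spred proteins act further up the relay. Etv4, Etv5, Egr1 and Fos are transcription factors whose transcripts follow the same signal. In mouse ESCs, FGF4 is a main autocrine source of ERK activity, and the ERK pathway is known for moving cells out of naive pluripotency and towards lineage commitment.

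Values are log2 normalised read counts as deposited, so that 1 unit is a 2-fold difference. Because the distributions of the libraries had been matched to each other, the total depth of a library could not be read from the table. The order of the distinct values placed between 86 and 223 reads at a log2 value of 2. The knockdowns followed the labels: Dppa2 was 7.12 ± 0.17 (SD, n = 3) with control siRNA and 3.64 ± 0.25 with Dppa2 siRNA, and Dppa4 was 7.06 ± 0.05 with control siRNA and 6.13 ± 0.03 with Dppa4 siRNA, an 11.2-fold and a 1.91-fold reduction. The mRNA of the other target did not pass the test in either knockdown (limma adjusted p = 0.888 for Dppa4 with Dppa2 siRNA and 0.921 for Dppa2 with Dppa4 siRNA). By Western blot, however, the study reports that Dppa4 siRNA also strongly lowered Dppa2 protein. It reports a smaller loss of Dppa4 protein with Dppa2 siRNA, so neither knockdown was limited to its target protein. All 11 naive pluripotency genes examined, including Pou5f1, Nanog and Esrrb, were expressed, and none passed the test in either comparison (limma, 2 and 1 genes at an unadjusted p below 0.05, against 15.7% and 18.0% of all genes tested). The largest log2 differences with Dppa2 and Dppa4 siRNA were those of Klf5 (-0.46 and 0.11) and Prdm14 (-0.40 and -0.33). For Prdm14 the limma adjusted p was 0.109 and 0.161. The medians of the 11 genes were 0.05 and 0.06. Libraries of the same group differed along 1 main axis. The leading principal component of the deviations from the group means held 58.3% of their variance over the 14601 genes tested, with control siRNA library A (0.52) and Dppa2 siRNA library B (0.45) at its high end and control siRNA library C (-0.59) at its low end.

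Etv5 was the most highly expressed of the 10 genes and Fos the least. On the deposited scale, which is not divided by length, control means ran from 2.26 ± 0.64 (SD, n = 3) for Fos to 8.33 ± 0.30 for Etv5. After division by the exonic length of each gene, log2 levels per kilobase in control cells were 6.29 for Etv5, 5.47 for Fgf4, 5.29 for Spry2, 4.85 for Etv4, 4.73 for Spry4, 3.53 for Dusp6, 2.79 for Spred1, 2.50 for Egr1, 2.32 for Dusp4 and 1.03 for Fos. Within this order Etv4 and Spry4, Spred1 and Egr1, and Egr1 and Dusp4 stood closer together than the larger of their SDs. Fgf4 exceeded Spry2 by 0.18, about the size of the larger SD of that pair (0.16). For Etv5, 26.7% of the 50-base stretches of its transcript also occur in Gm4798, a processed pseudogene on chromosome 10 that has no row in the table, and how reads from the 2 loci were divided is not given in the sources used here. None of the stretches taken from the other 9 transcripts was shared with another annotated transcript.

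The sequences before the start sites of 4 genes are given here because Dusp6, Spry2 and Etv5 varied together between libraries and Fgf4 varied against them (described further on). They are the 250 bases upstream of the RefSeq start in GRCm38.p6, 5' to 3' on the strand of the gene, with CCAAT boxes in capitals (CCAAT on the strand shown, or ATTGG where the box is on the other strand).
Fgf4: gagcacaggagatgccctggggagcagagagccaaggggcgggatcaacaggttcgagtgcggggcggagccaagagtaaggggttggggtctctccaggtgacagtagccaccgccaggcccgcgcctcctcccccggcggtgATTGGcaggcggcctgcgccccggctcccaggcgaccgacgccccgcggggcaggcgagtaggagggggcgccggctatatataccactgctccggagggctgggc
Dusp6: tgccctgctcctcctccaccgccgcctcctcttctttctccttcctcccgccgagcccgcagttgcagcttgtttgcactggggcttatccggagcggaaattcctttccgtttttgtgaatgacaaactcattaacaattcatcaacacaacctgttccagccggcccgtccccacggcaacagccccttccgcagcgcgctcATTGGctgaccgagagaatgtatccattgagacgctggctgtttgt
Spry2: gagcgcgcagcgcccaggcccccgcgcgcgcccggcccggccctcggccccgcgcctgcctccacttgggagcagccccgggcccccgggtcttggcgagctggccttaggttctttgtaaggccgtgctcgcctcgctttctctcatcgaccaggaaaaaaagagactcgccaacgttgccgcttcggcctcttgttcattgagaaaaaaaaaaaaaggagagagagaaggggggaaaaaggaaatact
Etv5: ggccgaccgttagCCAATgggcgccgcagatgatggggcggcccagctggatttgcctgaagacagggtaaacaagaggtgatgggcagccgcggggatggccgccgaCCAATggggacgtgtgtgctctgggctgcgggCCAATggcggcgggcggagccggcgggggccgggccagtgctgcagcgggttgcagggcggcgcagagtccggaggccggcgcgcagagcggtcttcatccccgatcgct
The stretches lie at chr7:144861136-144861385 (+) for Fgf4, chr10:99262981-99263230 (+) for Dusp6, chr14:105896820-105897069 (-) for Spry2 and chr16:22439571-22439820 (-) for Etv5. Promoters of 6 of the 10 genes were examined, these 4 with Spred1 and Fos, and those of the other members were not analysed here. All were rich in G and C, at 56.4% to 71.2% against a median of 52.4% over 32841 mouse promoters of the same length. A CCAAT box, which 33.9% of those promoters hold, was found 106 bases before the start of Fgf4 and 46 bases before that of Dusp6. The Etv5 sequence shown held the box at 237, 142 and 110 bases before the start, and the Spry2 sequence did not hold it. Etv5 has a second RefSeq start, whose sequence is not printed, with a CCAAT box only at 224 bases before it. A TATAAA match lay 33 bases before the start of Fos and in no other of the 6 genes examined (12.4% of promoters). No exact match to the ETS site CCGGAAG (6.91% of promoters) or the CRE TGACGTCA (1.55%) lay in the windows of these 6 genes. Nor did any window hold an exact match to the AP-1 site TGANTCA (6.75%) or a CArG box (1.47%). All were searched on both strands within these windows, and Dusp4, Spry4, Etv4 and Egr1 were not searched. Near matches to these sites and sites further upstream were not searched either, so these genes cannot be said to lack them.

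To ask whether loss of Dppa2 or Dppa4 altered the feedback transcripts, each knockdown was compared with control and the knockdowns with each other. None of the 10 genes passed the test in any of the 3 comparisons (limma on all 9 libraries, Benjamini-Hochberg adjusted p below 0.05 over 14601 genes). Among all genes tested, 3.44% passed with Dppa2 siRNA, 3.44% with Dppa4 siRNA and 0.0205% between the knockdowns. At an unadjusted p below 0.05 the counts were 1 of 10 (Egr1), 1 of 10 (Etv4) and 0 of 10, where 15.7%, 18.0% and 6.76% of all genes tested met that threshold. The median log2 difference of the 10 genes was -0.05 with Dppa2 siRNA, -0.08 with Dppa4 siRNA and -0.03 between the knockdowns, and the medians of all genes tested were 0.02, 0.03 and 0.00. Every one of the 30 intervals lay inside a 2-fold change in either direction. The 95% limits that reached furthest were those of Spred1 (0.79) and Fos (-0.74) with Dppa2 siRNA, Fos (-0.94) and Etv4 (0.61) with Dppa4 siRNA, and Fos (-0.89) and Egr1 (0.51) between the knockdowns. Comparisons with control share the same 3 control libraries. In bulk RNA, fewer cells expressing a gene and less RNA per cell cannot be told apart.

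**Figure D1:**
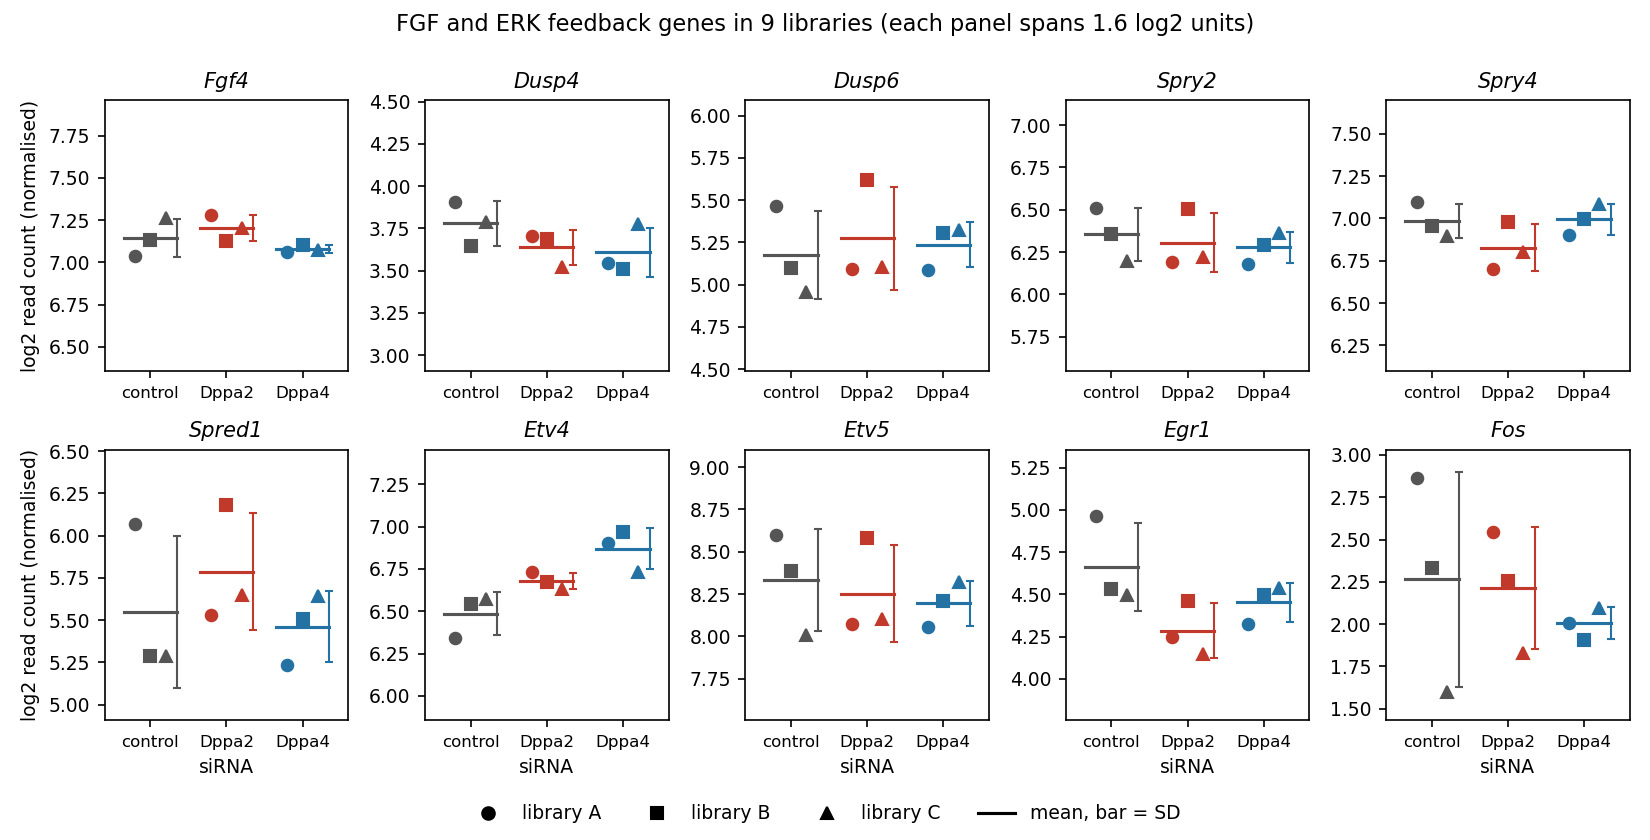
Log2 normalised read counts (y axis) of the 10 feedback genes in the control, Dppa2 and Dppa4 siRNA groups (x axis), with libraries A, B and C as circles, squares and triangles, and the mean and SD of each group (n = 3) as lines and bars. Etv4 was lowest in the 3 control libraries, and Egr1 was lower in the 3 Dppa2 siRNA libraries than in any control library. For every gene except Etv4 the control libraries spread more widely than the group means, and this spread was widest for Fos.

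**Figure D2:**
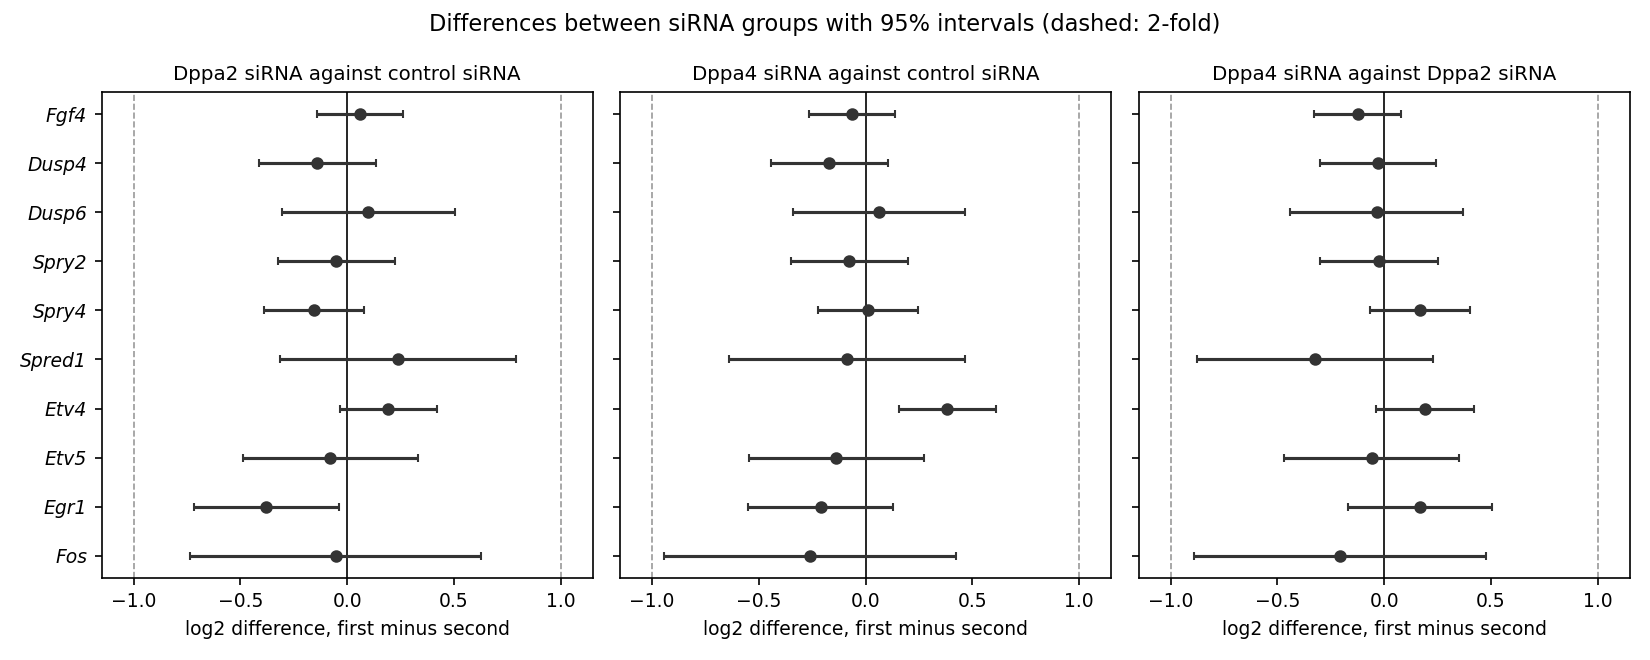
Log2 differences between groups (x axis, the group named first minus the group named second) for the 10 feedback genes (y axis), with 95% intervals from limma over 9 libraries and dashed lines at a 2-fold change. All 30 intervals lie between the dashed lines, and only the interval of Egr1 with Dppa2 siRNA and that of Etv4 with Dppa4 siRNA, which are not adjusted for the 14601 genes tested, do not contain 0.

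Fgf4 encodes the ligand at the head of the pathway (chromosome 7, 144861386 to 144865243, plus strand). It was 7.03, 7.13 and 7.26 in control libraries A, B and C, 7.28, 7.13 and 7.20 with Dppa2 siRNA, and 7.06, 7.10 and 7.07 with Dppa4 siRNA. The ligand was the steadiest of the 10 genes: its whole range over the 9 libraries was 0.25 log2 units, and only 12.6% of the 500 genes nearest to it in mean level had a smaller spread within groups. Against control, Fgf4 differed by 0.06 with Dppa2 siRNA (95% interval -0.14 to 0.26) and by -0.06 with Dppa4 siRNA (-0.27 to 0.14). All 3 Dppa4 siRNA libraries lay below all 3 Dppa2 siRNA libraries, as for 7.54% of genes tested, but the difference of -0.12 did not pass the test (limma adjusted p = 0.861).

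Dusp4 and Dusp6 are dual-specificity phosphatases of ERK family kinases, Dusp4 in the nucleus and Dusp6 in the cytoplasm. Dusp4 (chromosome 8, 34807297 to 34819894, plus strand) ranged from 3.64 to 3.90 with control siRNA, from 3.52 to 3.70 with Dppa2 siRNA and from 3.51 to 3.78 with Dppa4 siRNA. It was lower by 0.14 ± 0.12 (SE) and by 0.17 ± 0.12 on average, within the spread of the libraries. Dusp6 (chromosome 10, 99263231 to 99267488, plus strand), a widely used readout of FGF signalling, was 5.46, 5.10 and 4.96 in control libraries A, B and C, 5.09, 5.62 and 5.10 with Dppa2 siRNA and 5.09, 5.30 and 5.32 with Dppa4 siRNA. Its highest values came from control library A and Dppa2 siRNA library B, the libraries at the high end of the main axis of variation. The mean differences were 0.10 ± 0.18 and 0.06 ± 0.18, and the sign of the first turned to -0.08 without Dppa2 siRNA library B.

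Sprouty and Spred proteins inhibit the relay from receptor to ERK. Spry2 (chromosome 14, 105891949 to 105896819, minus strand) lay between 6.18 and 6.51 in all 9 libraries and differed from control by -0.05 ± 0.12 (SE) and -0.08 ± 0.12. Spry4 (chromosome 18, 38586268 to 38601268, minus strand) ranged from 6.90 to 7.09 in control libraries, from 6.70 to 6.98 after Dppa2 depletion and from 6.90 to 7.09 after Dppa4 depletion. The Dppa2 siRNA mean was 0.16 ± 0.10 below control and the Dppa4 siRNA mean was 0.01 ± 0.10 above it, with overlapping values in all 3 groups. Spred1 (chromosome 2, 117121374 to 117182279, plus strand) had the widest spread for its level, wider than that of 86.8% of the 500 genes nearest in mean. It was 6.07, 5.29 and 5.29 in control libraries A, B and C, 5.53, 6.18 and 5.65 with Dppa2 siRNA, and 5.23, 5.51 and 5.65 with Dppa4 siRNA. As with Dusp6, control library A and Dppa2 siRNA library B stood above all others. The mean difference of Spred1 was 0.24 ± 0.24 (SE) with Dppa2 siRNA and, with Dppa4 siRNA, -0.09 ± 0.24. Without control library A these values were 0.50 and 0.17. The sign of the difference with Dppa4 siRNA changed in 2 of the 9 fits that left out a library, and neither difference passed the test.

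Etv4 and Etv5 are closely related ETS transcription factors that respond to FGF. Etv4 (chromosome 11, 101769742 to 101785371, minus strand) was 6.34, 6.54 and 6.57 in control libraries A, B and C. With Dppa2 siRNA it was 6.73, 6.67 and 6.63, and with Dppa4 siRNA 6.91, 6.97 and 6.73. All 6 knockdown libraries thus lay above the 3 control libraries, and the Dppa4 siRNA libraries lay above the Dppa2 siRNA libraries by a narrow margin. Groups separated in this direction for 9.57% of genes tested with Dppa2 siRNA, for 13.7% with Dppa4 siRNA and for 10.1% between the knockdowns. Etv4 was 1.30-fold higher with Dppa4 siRNA (log2 difference 0.38 ± 0.10, SE, 95% interval 0.16 to 0.61) and 1.14-fold higher with Dppa2 siRNA (0.19 ± 0.10, interval -0.04 to 0.42). Neither passed the adjusted test (limma adjusted p = 0.0806 and 0.428, and 0.797 between the knockdowns), although the former was the smallest adjusted p of any member. Under the 18 alternatives the adjusted p for Dppa4 siRNA ranged from 0.0746 to 0.314 and the log2 difference from 0.27 to 0.45. With Dppa2 siRNA the difference ranged from 0.12, without control library A, to 0.24. Etv5 (chromosome 16, 22381309 to 22439719, minus strand) was 8.60, 8.39 and 8.01 in control libraries A, B and C, 8.07, 8.58 and 8.10 with Dppa2 siRNA, and 8.06, 8.21 and 8.32 with Dppa4 siRNA, so that all groups overlapped. Its differences from control were -0.08 ± 0.18 and -0.14 ± 0.18. The log2 ratio of Etv4 to Etv5 differed from control by 0.27 with Dppa2 siRNA and by 0.52 with Dppa4 siRNA, which did not separate the responses of the 2 genes (two-sided exact permutation test, p = 0.5 and 0.2, adjusted over the 2 comparisons 0.5 and 0.4, smallest p possible 0.1).

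Egr1 and Fos are immediate early genes, transcribed within minutes of ERK activation. Egr1 (chromosome 18, 34859823 to 34864984, plus strand) was 4.96, 4.53 and 4.50 in control libraries A, B and C, 4.25, 4.46 and 4.15 with Dppa2 siRNA, and 4.32, 4.50 and 4.54 with Dppa4 siRNA. The 3 Dppa2 siRNA libraries lay below the 3 control libraries, as for 8.20% of genes tested, by a narrow margin. Egr1 was 1.30-fold lower with Dppa2 siRNA (log2 difference -0.38 ± 0.15, SE, interval -0.72 to -0.04) and did not pass the adjusted test (limma adjusted p = 0.254). Leaving out control library A brought the difference to -0.23, a change of over 1.5 times, and the adjusted p ranged from 0.0916 to 0.640 over the alternatives. With Dppa4 siRNA the difference was -0.21 ± 0.15, and -0.06 without control library A, and the groups overlapped, whereas 10.2% of genes tested were lower without overlap. Fos (chromosome 12, 85473890 to 85477273, plus strand) was the most weakly expressed member. It was 2.86, 2.33 and 1.60 in control libraries A, B and C, which corresponded to about 244, 283 and 75 reads. The Dppa2 siRNA libraries were at 2.55, 2.26 and 1.83 (196, 123 and 76 reads), and the Dppa4 siRNA libraries at 2.01, 1.91 and 2.10 (139, 134 and 111 reads). Fos therefore spanned 1.27 log2 units, most of it between control libraries A and C, and its differences of -0.05 ± 0.30 and -0.26 ± 0.30 cannot be separated from that spread.

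The other genes of the pathway passed the test about as often as all genes tested. Of 86 genes in 5 lists (FGF ligands, receptors and cofactors, the relay to ERK, further feedback inhibitors and further ERK-responsive transcripts), 80 could be tested. With Dppa2 siRNA 1 passed the test as higher and 1 as lower, 2.50% of those tested, and 15 had an unadjusted p below 0.05. The gene counted as higher was Fgf7, which the filter kept only through knockdown libraries. With Dppa4 siRNA 1 was higher and 2 were lower, 3.75% of those tested, with 13 at an unadjusted p below 0.05. Between the knockdowns none passed (limma, 5 at an unadjusted p below 0.05). Over all genes tested, 3.44% passed with Dppa2 siRNA, 3.44% with Dppa4 siRNA and 0.0205% between the knockdowns. The unadjusted threshold was met by 15.7%, 18.0% and 6.76% in the 3 comparisons. The median log2 differences of the 80 genes were -0.04, 0.03 and 0.02.

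Among the genes of these lists that passed, only Fgf1 kept its call under every alternative. Fgf1, a ligand for all FGF receptors, was 3.10 ± 0.09 (SD, n = 3) with control siRNA, 2.09 ± 0.16 with Dppa2 siRNA and 2.14 ± 0.18 with Dppa4 siRNA. It fell 2.01-fold and 1.94-fold (limma adjusted p = 0.00531 and 0.00713), and passed under all 19 alternatives in both comparisons. Fgf13, an intracellular member of the family that does not act through FGF receptors, was 1.12 ± 0.31 with control siRNA and -0.33 ± 0.28 with Dppa4 siRNA, from 48 to 111 and from 19 to 26 reads. It fell 2.73-fold (limma adjusted p = 0.0091), and with Dppa2 siRNA its difference of -0.69 did not pass (0.161). The call of Fgf13 was kept under 18 of 19 alternatives and lost with the intensity difference filter of the study. Fgf7, a ligand of epithelial receptor forms, passed as higher with Dppa2 siRNA on 1 to 3 control reads against 7 to 9 reads (log2 difference 2.74 ± 0.55, SE, limma adjusted p = 0.0313), and lost the call under 12 of 19 alternatives. Its control values, from -4.35 to -3.78, were below the filter limit of -2, so only knockdown libraries kept it among the genes tested. The filter itself thus favoured a call as higher, and no conclusion is drawn from it.

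No receptor, cofactor or relay gene passed the test, nor did any of the 20 further ERK-responsive transcripts tested. Among 13 receptors and cofactors, Fgfrl1, a decoy-like receptor without a kinase domain, had the largest differences, -0.72 ± 0.17 (SE) with Dppa2 siRNA and -0.71 ± 0.17 with Dppa4 siRNA (limma adjusted p = 0.0636 and 0.066). The 21 relay genes lay between -0.39 and 0.24 with Dppa2 siRNA and between -0.52 and 0.20 with Dppa4 siRNA, the lowest being Sos2 and Rps6ka3. Of 16 further feedback inhibitors, the ERK phosphatase Dusp9 was 6.75 ± 0.04 (SD, n = 3) with control siRNA, 6.93 ± 0.04 with Dppa2 siRNA and 7.12 ± 0.06 with Dppa4 siRNA. Dusp9 rose with Dppa4 siRNA (log2 difference 0.36 ± 0.08, SE, limma adjusted p = 0.0422), a call lost under 14 of 19 alternatives, among them each of the 9 fits that left out a library. The phosphatases Dusp5 (-0.46 and -0.40) and Dusp2 (-0.37 and -0.43) and the immediate early genes Fosl2 (-0.36 and -0.70) and Atf3 (0.60 and 0.31) did not pass in either comparison with control.

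Feedback and direct target transcripts of other signals were examined beside them. Of 13 such genes, 3 passed as lower with Dppa2 siRNA: Id3 (4.37 ± 0.18 to 3.42 ± 0.03, SD, n = 3, limma adjusted p = 0.00213) and Id2 (4.31 ± 0.05 to 3.41 ± 0.31, 0.012), which respond to BMP, and Sp5 (1.20 ± 0.61 to -0.57 ± 0.31, 0.0159), a Wnt target. Id3 passed under all 19 alternatives and Id2 and Sp5 under 13 each. With Dppa2 siRNA 7 of the 13 had an unadjusted p below 0.05 (limma), where 15.7% of all genes tested met that threshold and 3.44% passed. With Dppa4 siRNA none of the 13 passed (limma, 4 at an unadjusted p below 0.05, against 18.0% of all genes tested), and the values were -0.27 for Id3, -0.64 for Id2 and -1.06 for Sp5. Between the knockdowns none passed either (limma adjusted p = 0.406 for Id3, 0.805 for Id2 and 0.724 for Sp5, with 5 of the 13 at an unadjusted p below 0.05, against 6.76%). Whether Id3, Id2 or Sp5 differed more from control than the FGF and ERK feedback genes was not tested.

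**Figure D3:**
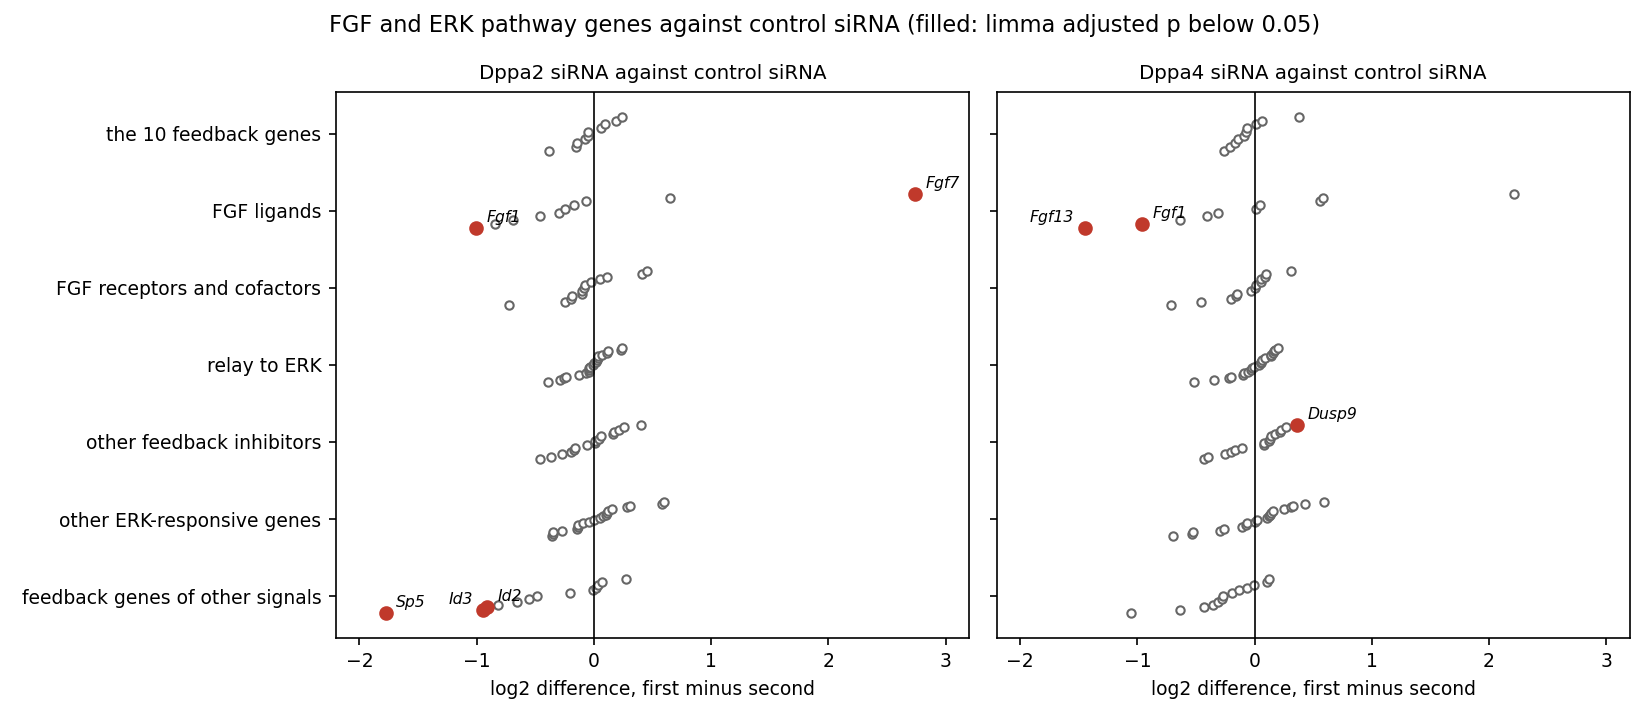
Log2 differences from control (x axis) with Dppa2 siRNA (left) and Dppa4 siRNA (right) for the tested genes of 7 lists (y axis), each point a gene and filled points those with a limma adjusted p below 0.05. The 10 feedback genes lie between -0.38 and 0.38 with no filled point, and the filled points are Fgf1, Fgf7, Id2, Id3 and Sp5 on the left and Fgf1, Fgf13 and Dusp9 on the right.

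Some markers of other cells passed the test in the same comparisons. Gata6 and Sox17, transcription factors of primitive endoderm, were higher with Dppa4 siRNA by 1.44 and 1.20 log2 units (limma adjusted p = 0.0132 and 0.0348), 2 of 12 primitive endoderm markers. Of the 12, 4 with Dppa2 siRNA and 6 with Dppa4 siRNA had an unadjusted p below 0.05 (limma, against 15.7% and 18.0% of all genes tested). The median log2 differences of the 12 were 0.18 and 0.56. Their summed log2 level, which mainly follows the most highly expressed of them, ranged from 8.21 to 8.35 in control libraries, from 8.12 to 8.17 after Dppa2 depletion and from 8.12 to 8.23 after Dppa4 depletion. Of 8 fibroblast markers 3 could be tested, Postn and Lum were at the lowest value in all libraries, and Pdgfrb passed as higher in both knockdowns (1.08 and 0.90, limma adjusted p = 0.00718 and 0.0173), whereas Col1a1 (0.30 and 0.10) and Thy1 (-0.23 and 0.12) did not pass. The summed level of the 8 ranged from 3.14 to 3.38 in control libraries, from 3.40 to 3.66 after Dppa2 depletion and from 3.34 to 3.73 after Dppa4 depletion. None of 10 primed and formative genes passed in either comparison (limma, 5 and 2 at an unadjusted p below 0.05, against 15.7% and 18.0% of all genes tested), with Fgf5, itself an FGF ligand, at -0.84 and -0.63. The part of these cells in the values of the feedback genes was not tested.

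Within groups, most of the feedback genes varied together. The deviations of Spry2 and Etv5 from their group means had a Pearson r of 0.99 over the 9 libraries, those of Dusp6 and Spry2 0.98, those of Spred1 and Egr1 0.96 and those of Dusp6 and Etv5 0.95. Of the 45 pairs of members, 15 had an r above 0.8. Fgf4 ran the other way, with an r of -0.86 against Etv5 and -0.82 against Spry2. The promoters printed above belong to Fgf4, Dusp6, Spry2 and Etv5, and a link between promoter sequence and this covariation was not tested. As a description, each r rests on 9 points after removal of 3 group means, and the points share library preparation, depth and base composition.

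This covariation was shared with much of the transcriptome. The members' r with the main component of the deviations over all genes was 0.99 for Etv5, 0.97 for Spry2, 0.93 for Dusp6, 0.89 for Spry4, 0.88 for Spred1, 0.86 for Egr1 and 0.69 for Fos. Dusp4 followed it weakly (0.37), and Etv4 (-0.64) and Fgf4 (-0.92) ran against it. Among all genes tested, 23.9% had an r above 0.8 and 27.5% an r below -0.8. The loading of a gene on this component went with its transcript length (r 0.44 with log2 length) and against its GC content (r -0.38) across 9888 genes, which are not independent replicates. Its source was not tested. After each library was corrected for transcript GC content and length, Etv4 was higher with Dppa4 siRNA by 0.27 (limma adjusted p = 0.0851) and Egr1 lower with Dppa2 siRNA by 0.39 on the log2 scale (0.187), and no member passed.

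**Figure D4:**
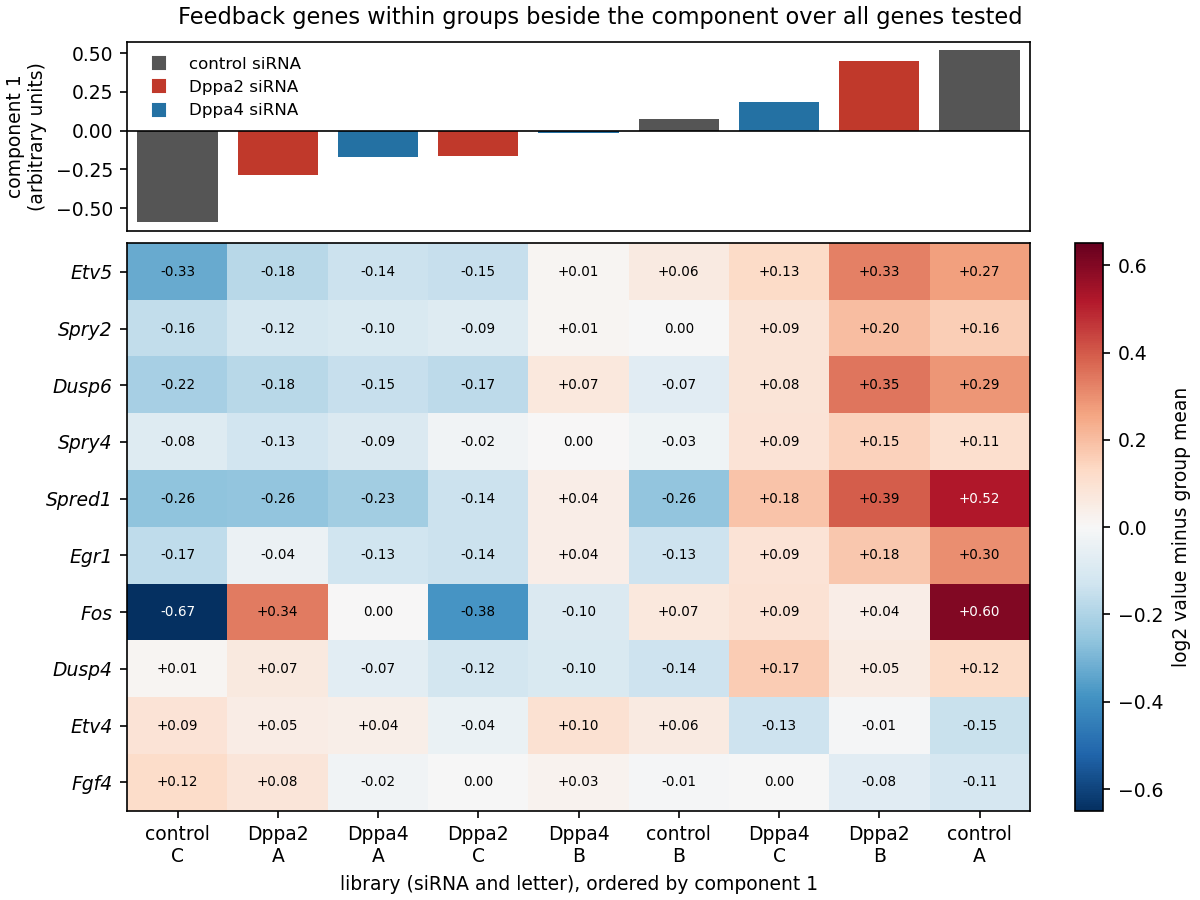
Deviation of each feedback gene from its group mean (cells, log2 units, red above and blue below) in the 9 libraries, ordered along the x axis by their value on the main component of the deviations over 14601 genes, which the bars above show in arbitrary units and coloured by siRNA group. Etv5, Spry2, Dusp6, Spry4, Spred1 and Egr1 run from blue at control C to red at control A, whereas Fgf4 and Etv4 run weakly the other way.

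Genes with the profile most like the mean of the 10 centred members over the 9 libraries were Lgr4, Usp9x, Brwd3, Hspa13 and Arid4b (Pearson r 0.98 each). That mean was highest in control library A (0.24) and Dppa2 siRNA library B (0.16) and lowest in control library C (-0.14). No member passed the test when control library A and Dppa2 siRNA library B were left out together, an alternative chosen after seeing the data. Etv4 then stood 0.31 above control with Dppa4 siRNA and 0.12 above it with Dppa2 siRNA (limma adjusted p = 0.163 and 0.711), and Egr1 stood at -0.06 and -0.32 (0.784 and 0.270).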

How the data were processed

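PolyA RNA-seq libraries were analysed from 9 samples, 3 each with control, Dppa2 or Dppa4 siRNA, grouped by the sample titles. According to the submitters' processing notes, Trim Galore 0.4.5 and HISAT2 2.0.5 were used with the GRCm38 build on 50-base single-end reads. The authors quantified them by strand over transcripts in SeqMonk and matched the libraries' cumulative distributions. The deposited values are log2 normalised read counts, not divided by gene length. The study ran a count model, but the table used here holds log2 values, so limma 3.58.1 in R 4.3.3 was used.

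Genes with log2 above -2 in at least 3 of 9 libraries were kept (14601 of 25965). A linear model with siRNA as the only term was fitted to all 9 libraries (lmFit, eBayes with an intensity trend), two-sided, and p-values were adjusted by Benjamini-Hochberg over all genes kept, with calls below 0.05. Intervals are 95% limits from this fit. Low read numbers were inferred by counting the distinct values of a library upwards from its lowest, 1 step a read, up to 300. The fit was tested on simulated data in which the noise was independent between genes, unlike in these libraries. Exonic lengths, transcript GC content and gene overlaps came from the GENCODE M21 annotation, promoters from RefSeq (GRCm38.p6).

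The members and all gene lists were chosen with earlier results of these data known. Beside the 10 members, the genes named were those passing the test in a comparison with control (up to 6 a list), or, in lists with fewer than 2, up to 2 with the largest difference, with the 5 genes most like the mean of the centred members over the 9 libraries. Fgf5, Postn, Lum, Pou5f1, Nanog and Esrrb are named as list members. Alternatives were other filters, an added 1 on the linear scale, the letter as a block, only the 2 groups compared, no trend, re-centring, the intensity difference filter of the study (1% nearest genes), leaving out each library, and, added after seeing the data, a correction for GC content and length and the joint removal of 2 libraries.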

Additional observations from a re-analysis of the deposited data

How the results depend on the processing

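No member passed the test in any comparison under any alternative (18 fits for each of 30 differences, and the intensity difference filter). Of the 30 differences, 17 kept their sign in every fit and 13, none of them called, changed sign in at least 1. Leaving out each library in turn gave ranges with Dppa2 siRNA of -0.075 to 0.24 for Dusp6, -0.15 to 0.030 for Spry2, -0.24 to 0.055 for Etv5 and -0.39 to 0.25 for Fos. With Dppa4 siRNA the ranges were -0.045 to 0.21 for Dusp6, -0.16 to 0.0035 for Spry2, -0.034 to 0.067 for Spry4, -0.22 to 0.17 for Spred1 and -0.59 to 0.040 for Fos. Between the knockdowns they were -0.11 to 0.020 for Dusp4, -0.12 to 0.14 for Dusp6, -0.084 to 0.074 for Spry2 and -0.15 to 0.11 for Etv5. Without control library A and Dppa2 siRNA library B together, the sign changed for Fos with Dppa2 siRNA (0.22), for Spry2 (0.0035), Spred1 (0.17) and Fos (0.040) with Dppa4 siRNA, and for Dusp6 (0.14), Spry2 (0.074) and Etv5 (0.11) between the knockdowns. The correction for transcript GC content and length turned Spred1 with Dppa4 siRNA to 0.065.

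Of the 99 pathway and other feedback genes, 5 passed with Dppa2 siRNA and 3 with Dppa4 siRNA. With Dppa2 siRNA the count was 18 with no filter, 3 with only the 2 groups compared, 3 without control library A and Dppa2 siRNA library B, 9 after the GC and length correction and 2 to 6 when single libraries were left out. With Dppa4 siRNA it was 5 without the intensity trend, 6 after the GC and length correction and 2 to 4 when single libraries were left out. The cause was not tested. Over all genes, 502 passed with each siRNA. The counts with Dppa2 and Dppa4 siRNA were 9140 and 470 with no filter, where the lowest value differs by library, 230 and 294 with only the 2 groups compared, 279 and 284 with the intensity difference filter, and 120 to 413 and 149 to 496 when single libraries were left out.

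The letters of the libraries did not pair them: deviations of same-lettered libraries correlated between -0.58 and 0.37. With the letter as a replicate block 2 of the 99 genes passed with each siRNA and no member, and 238 and 212 of all genes.

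With 3 libraries a group, the 95% intervals of the members were 0.40 to 1.37 log2 units wide, so differences within them, such as that of Fos or Spred1, were not detectable at this number of libraries. A matched distribution cannot show a change in total RNA.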
